A study of Homo sapiens with 12 samples.

Results

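The circadian clock's PAS-domain core and its partners, 10 genes in all, are described here as measured in breast cancer cells with and without the aryl hydrocarbon receptor (AHR). They are the activators CLOCK (row ENSG00000134852_at), ARNTL (ENSG00000133794_at, named BMAL1 in RefSeq) and NPAS2 (ENSG00000170485_at), the repressors PER1 (ENSG00000179094_at), PER2 (ENSG00000132326_at), PER3 (ENSG00000049246_at), CRY1 (ENSG00000008405_at) and CRY2 (ENSG00000121671_at), and the nuclear receptors NR1D1 (ENSG00000126368_at) and NR1D2 (ENSG00000174738_at). The list names them by ID and uses no measured value, though it was drawn up with earlier results of these data known, and each has 1 of the 31720 rows of the deposited table, so all 10 were measured and none was filtered out. RNA came from 4 groups of 3 arrays each: SUM149 AHR KO, SUM149 control, MDA-MB-231 AHR KO and MDA-MB-231 control. Both cell lines are triple negative breast cancers, SUM149 of the inflammatory type and MDA-MB-231 of mesenchymal character. The knockout cells were made with the lentiCRISPR v2 vector, which carries Cas9 and a guide, and with a pair of guide sequences against the first exon of AHR. The controls received the vector without an AHR guide, so Cas9, lentiviral transduction and puromycin selection were shared by all 4 groups.

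Knockout cells were plated by serial dilution during selection, and the number of clones behind each knockout group is not given in the sources used here. If a group came from few clones, loss of AHR and the traits of those clones cannot be told apart. SUM149 was grown in F-12K medium with hydrocortisone and insulin, and MDA-MB-231 in Dulbecco's medium without them, so cell line and medium cannot be told apart either. No harvest time and no step to synchronise the clock is given in the sources used here, and 1 time point shows no rhythm, so phase was not tested. The series calls the 3 arrays of a group biological replicates without saying whether the cultures were separate, and p-values measure only the spread between these arrays.

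The clock is a feedback loop of transcription. CLOCK, or its paralog NPAS2, pairs with ARNTL through PAS domains and binds E-boxes in the promoters of the PER, CRY and NR1D genes. PER and CRY proteins accumulate and inhibit that pair, while NR1D1 and NR1D2 (REV-ERBα and REV-ERBβ) repress ARNTL, and also NPAS2 and CLOCK, through ROR elements. AHR belongs to the same family of bHLH-PAS factors as CLOCK, NPAS2 and ARNTL, binds DNA with its partner ARNT, and in mouse is known to associate with BMAL1. D-boxes, bound by PAR-bZIP factors, are a further clock-controlled element.

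The promoters of the 6 genes that passed the knockout test in at least 1 line are shown, since the loop is known to act through elements such as these. All are RefSeq windows on GRCh38.p14, running from 250 bases before to 50 after an annotated start, on the strand of the gene. All 10 genes matched the RefSeq table, with 15 windows in all, and where a gene had more than 1 the window with the most matches is shown. Capitals mark matches on either strand to the E-box (CACGTG), the E′-box (CACGTT), the D-box (TTANGTAA), the ROR core (AGGTCA) and the AHR core (GCGTG), and no match of one motif overlapped a match of another. The NPAS2 window is at chr2:100819889-100820188 (plus strand), the ARNTL window at chr11:13277540-13277839 (plus), PER1 at chr17:8152355-8152654 (minus), PER2 at chr2:238288561-238288860 (minus), PER3 at chr1:7784041-7784340 (plus) and NR1D2 at chr3:23945871-23946170 (plus).
NPAS2: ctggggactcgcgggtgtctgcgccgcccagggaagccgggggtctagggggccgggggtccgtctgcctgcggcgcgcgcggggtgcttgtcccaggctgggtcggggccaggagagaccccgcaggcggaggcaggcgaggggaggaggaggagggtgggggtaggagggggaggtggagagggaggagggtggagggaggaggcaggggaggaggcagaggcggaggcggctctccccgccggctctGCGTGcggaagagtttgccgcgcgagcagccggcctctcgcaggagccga
ARNTL: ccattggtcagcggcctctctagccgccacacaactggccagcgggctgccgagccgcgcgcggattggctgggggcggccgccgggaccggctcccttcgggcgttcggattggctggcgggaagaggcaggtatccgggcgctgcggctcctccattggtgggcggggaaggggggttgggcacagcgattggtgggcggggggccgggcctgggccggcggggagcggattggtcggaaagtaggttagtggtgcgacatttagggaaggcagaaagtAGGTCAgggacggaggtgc
PER1: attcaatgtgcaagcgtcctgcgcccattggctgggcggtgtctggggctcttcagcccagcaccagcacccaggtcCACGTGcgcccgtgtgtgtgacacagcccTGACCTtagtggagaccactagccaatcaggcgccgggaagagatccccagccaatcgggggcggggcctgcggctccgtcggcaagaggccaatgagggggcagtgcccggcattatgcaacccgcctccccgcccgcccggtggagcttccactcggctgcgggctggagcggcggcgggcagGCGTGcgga
PER2: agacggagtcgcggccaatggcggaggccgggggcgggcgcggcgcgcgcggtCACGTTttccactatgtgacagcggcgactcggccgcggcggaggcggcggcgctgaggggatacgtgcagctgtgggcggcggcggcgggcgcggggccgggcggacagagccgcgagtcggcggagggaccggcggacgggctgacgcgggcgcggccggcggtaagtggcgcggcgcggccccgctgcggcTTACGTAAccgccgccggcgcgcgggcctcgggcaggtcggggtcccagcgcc
PER3: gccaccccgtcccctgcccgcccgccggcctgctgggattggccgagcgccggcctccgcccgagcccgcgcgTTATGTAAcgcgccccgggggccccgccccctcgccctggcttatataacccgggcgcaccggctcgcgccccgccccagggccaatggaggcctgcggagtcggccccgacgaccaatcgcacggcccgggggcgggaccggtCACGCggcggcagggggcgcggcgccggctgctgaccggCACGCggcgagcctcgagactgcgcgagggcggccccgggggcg
NR1D2: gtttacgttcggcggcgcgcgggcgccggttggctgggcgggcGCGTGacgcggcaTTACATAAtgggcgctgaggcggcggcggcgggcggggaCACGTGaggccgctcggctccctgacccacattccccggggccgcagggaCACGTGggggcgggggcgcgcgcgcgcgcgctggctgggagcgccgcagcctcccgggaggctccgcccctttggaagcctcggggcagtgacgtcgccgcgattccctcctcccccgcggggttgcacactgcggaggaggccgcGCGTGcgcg

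The E-box CACGTG stood in the PER1 window, 173 bases before the start, and 2 times in the NR1D2 window, 155 and 105 bases before it. This motif was held by 2 of the 15 windows, against 7.26% of all 35116 RefSeq windows of the same length. The E′-box CACGTT was found in PER2, 197 bases before the start, and in windows of CLOCK, CRY1, CRY2 and NR1D1. These were 5 of the 15 windows, against 5.34% of all windows. PER2, PER3 and NR1D2 each held a D-box, in 3 of the 15 windows, against 2.18% of all windows. The ROR core was found in ARNTL, PER1 and CRY2, in 4 of the 15 windows, against 13.8%. The AHR core GCGTG, a short motif found in 36.5% of all windows, occurred in 8 of the 15 windows, from 7 of the genes (CLOCK, NPAS2, PER1, PER3, CRY1, NR1D1 and NR1D2). Its PER3 matches were counted in both windows of that gene, which overlap. A match is a description of the letters and not a site of binding, and a window without one says nothing about a factor.

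The values are log2 expression from RMA, which the authors deposited, and are comparable between arrays for 1 gene but not between genes. Group means of the 10 genes lay between 4.65 and 8.99, all above the array medians of 3.62 to 3.70, and no background level was set. Over all rows, the lowest correlation between arrays of the same group was 0.9939. The median replicate SD of the 10 genes was 0.055 in SUM149 AHR KO, 0.0999 in SUM149 control, 0.0578 in MDA-MB-231 AHR KO and 0.0511 in MDA-MB-231 control cells, against 0.108 to 0.115 over all rows. The table gives Ensembl IDs and no gene names, and the AHR transcript and the markers of the cell types were not analysed here.

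In SUM149, NPAS2, PER1, PER2, PER3 and NR1D2 passed the test as higher in AHR KO cells, and none of the 10 passed as lower. In MDA-MB-231, NPAS2, PER3 and ARNTL passed as lower, and none passed as higher, though CRY1 (0.27, adjusted p = 0.0593 from limma) narrowly missed. NPAS2 and PER3 therefore passed the test in both lines in opposite directions. These are bulk samples, in which less RNA per cell and fewer expressing cells cannot be told apart. In SUM149, 5 of 10 genes passed an adjusted p of 0.05 (limma, Benjamini-Hochberg over all 31720 rows), against 16.8% of all rows, and all 5 were higher, against 8.59% of all rows, while 0 were lower, against 8.23%. In MDA-MB-231, 3 of 10 passed, against 3.92% of all rows, and all 3 were lower, against 2.19%, while 0 were higher, against 1.73%. The pattern of a fall in MDA-MB-231 with a rise in SUM149, held by 2 of 10, was held by 0.561% of all rows. The opposite pattern was held by 0 of 10, against 0.372%, and a call in the same direction in both lines by 0 of 10, against 0.93%. CLOCK, CRY1, CRY2 and NR1D1, 4 of 10, passed in neither line, as did 81.1% of all rows.

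Counted by arrays, the groups did not overlap in 6 of the 10 genes in SUM149, against 31.8% of all rows, with 5 higher in AHR KO, against 16.7%, and 1 lower (CLOCK), against 15.1%. In MDA-MB-231 they did not overlap in 8 of 10, against 22.1% of all rows, with 6 lower in AHR KO (ARNTL, NPAS2, PER1, PER2, PER3 and NR1D1), against 10.9%, and 2 higher (CRY1 and NR1D2), against 11.2%.

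**Figure D1:**
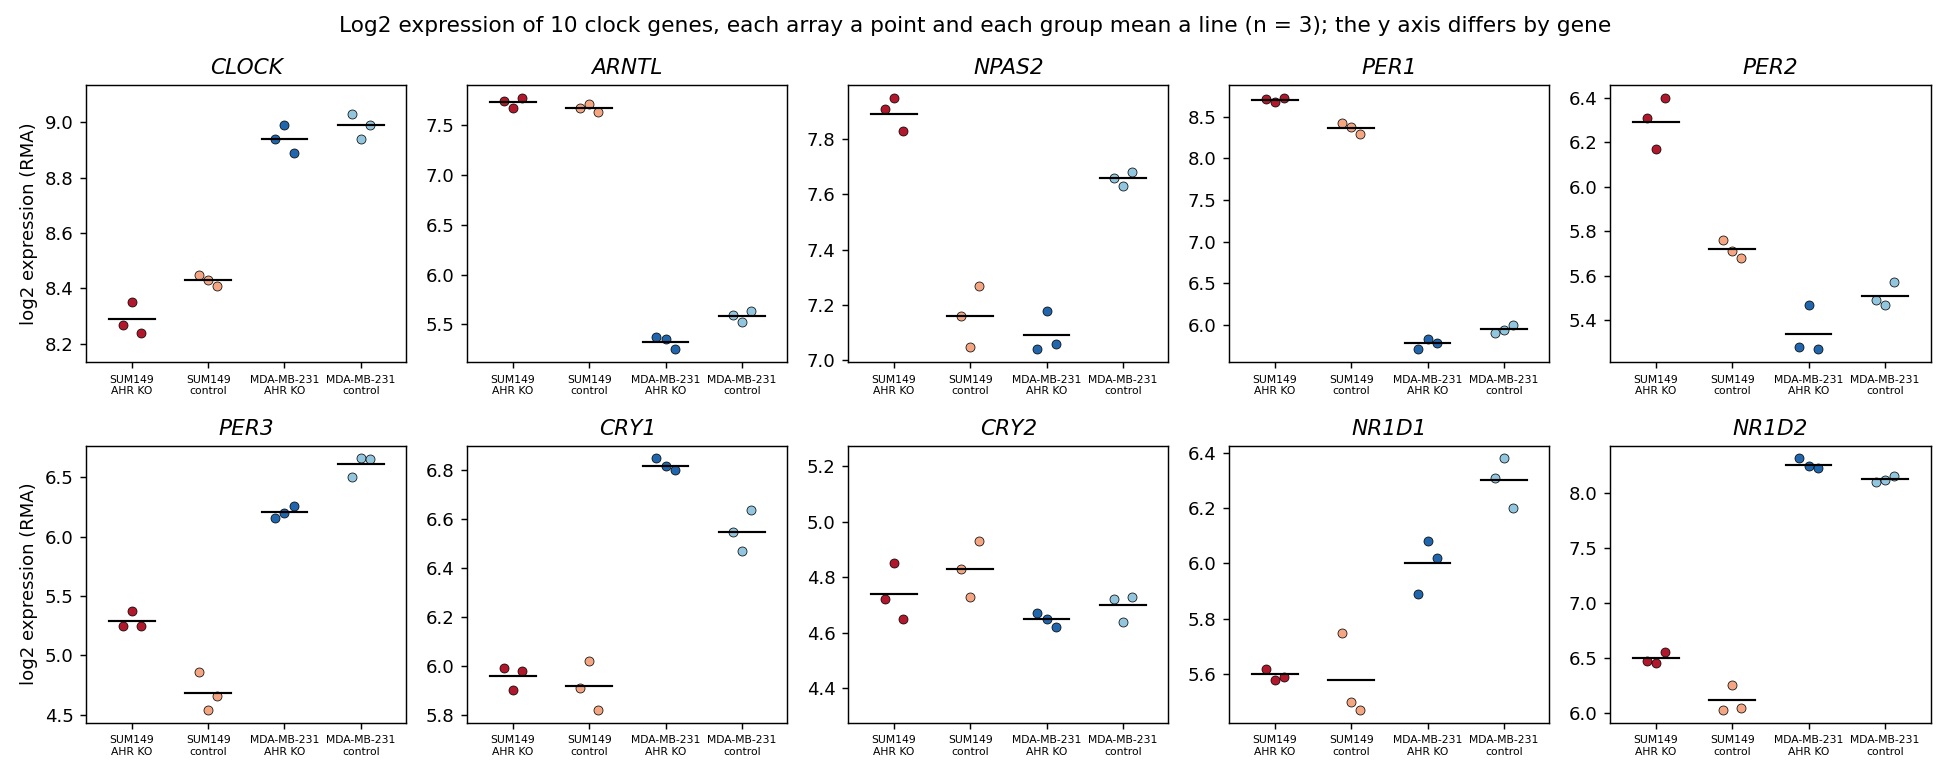
Log2 expression (y axis, RMA, scaled for each gene) of the 10 clock genes in each of the 12 arrays, with points for arrays and a line for each group mean (n = 3). NPAS2, PER1, PER2 and PER3 lie higher in AHR KO than in control arrays of SUM149 and lower in AHR KO than in control arrays of MDA-MB-231, with no overlap in either line.

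NPAS2, the paralog of CLOCK that can take its place beside ARNTL, had the largest change of the 10 genes in each line. In SUM149 its log2 level was 7.91, 7.95 and 7.83 in the AHR KO arrays, against 7.16, 7.05 and 7.27 in the controls. In MDA-MB-231 it was 7.04, 7.18 and 7.06 in the AHR KO arrays, against 7.66, 7.63 and 7.68 in the controls. The groups did not overlap in either line, and the direction was opposite. NPAS2 was 1.67-fold higher in SUM149 AHR KO cells (log2 fold change 0.74, SE 0.07, adjusted p = 3.18e-05 from limma). It was 1.48-fold lower in MDA-MB-231 AHR KO cells (log2 fold change -0.56, SE 0.07, adjusted p = 0.00106). The knockout effects differed by 1.30 on the log2 scale, SUM149 minus MDA-MB-231 (95% interval 1.08 to 1.52, adjusted p = 1.19e-05 from limma's interaction contrast), which ranked 155 of 31720 rows by p. The order of the 4 groups, from high to low, was SUM149 AHR KO (7.89), MDA-MB-231 control (7.66), SUM149 control (7.16) and MDA-MB-231 AHR KO (7.09), and only the last pair of neighbours overlapped. The single AHR core in the window shown above begins at the start site itself. That motif is found in 36.5% of all windows, and binding was not tested.

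ARNTL, the obligate partner of CLOCK and NPAS2, changed less. Its log2 level in SUM149 was 7.75, 7.67 and 7.78 in AHR KO arrays, against 7.67, 7.71 and 7.63 in controls, and the groups overlapped. The SUM149 difference of 0.06 did not pass (95% interval -0.07 to 0.20, adjusted p = 0.595 from limma). In MDA-MB-231 it was 5.37, 5.35 and 5.25 in AHR KO arrays, all below the 5.59, 5.52 and 5.63 of the controls. That fall of 1.19-fold (log2 fold change -0.26, SE 0.06, adjusted p = 0.0477) lay just inside the threshold, and in each of the 12 fits without 1 array it missed it, with adjusted p-values of 0.0593 to 0.163. The difference between the lines was 0.32 (adjusted p = 0.0354), a call lost in 8 of the 12 fits without 1 array, in which the adjusted p-values ran from 0.0601 to 0.0842.

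CLOCK, which heads the activator pair and is also a histone acetyltransferase, had no called change. In SUM149 it read 8.27, 8.35 and 8.24 in AHR KO arrays, each below the 8.45, 8.43 and 8.41 of the controls, yet the log2 fold change of -0.15 did not pass (95% interval -0.27 to -0.02, adjusted p = 0.124 from limma). With a variance trend and robust moderation it did, at an adjusted p of 0.0148, in a setting that called 19.7% of all rows. In MDA-MB-231 it read 8.94, 8.99 and 8.89 in AHR KO arrays and 9.03, 8.94 and 8.99 in controls, which overlap (log2 fold change -0.05, 95% interval -0.18 to 0.08, adjusted p = 0.759). The paralogs CLOCK and NPAS2 thus had changes of -0.15 and 0.74 in SUM149 and of -0.05 and -0.56 in MDA-MB-231.

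The 3 PER genes, the repressors whose accumulation and decay time the loop, shared the direction of NPAS2 in each line. PER1 also responds early to glucocorticoids. PER1 read 8.71, 8.68 and 8.73 in SUM149 AHR KO arrays, against 8.42, 8.38 and 8.29 in SUM149 controls, a rise of 1.27-fold (log2 fold change 0.34, SE 0.06, adjusted p = 0.00229 from limma). In MDA-MB-231 it read 5.71, 5.83 and 5.79 in AHR KO arrays, against 5.91, 5.94 and 6.0 in controls. The MDA-MB-231 groups did not overlap, but the log2 fold change of -0.17 did not pass (95% interval -0.31 to -0.04, adjusted p = 0.176). The difference between the lines did, at 0.51 (SE 0.09, adjusted p = 0.00239).

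PER2 is the PER gene whose loss most disturbs rhythm in mouse. Its log2 level was 6.31, 6.17 and 6.4 in SUM149 AHR KO arrays, against 5.76, 5.71 and 5.68 in SUM149 controls. The rise was 1.49-fold (log2 fold change 0.58, SE 0.08, adjusted p = 0.00035 from limma), and the groups were well apart. In MDA-MB-231 AHR KO arrays it was 5.28, 5.47 and 5.27, against 5.49, 5.47 and 5.57 in controls. These groups did not overlap, but only by a margin lost in rounding, and the log2 fold change of -0.17 did not pass (adjusted p = 0.308). The difference between the lines was 0.75 (SE 0.11, adjusted p = 0.00105).

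PER3, which is less central to the loop than PER1 and PER2 in mouse, changed in both lines. It read 5.25, 5.37 and 5.25 in SUM149 AHR KO arrays, above the 4.86, 4.54 and 4.66 of the controls, a rise of 1.52-fold (log2 fold change 0.61, SE 0.09, adjusted p = 0.000471 from limma). It read 6.16, 6.20 and 6.26 in MDA-MB-231 AHR KO arrays, below the 6.50, 6.66 and 6.65 of the controls, a fall of 1.32-fold (log2 fold change -0.40, SE 0.09, adjusted p = 0.0274). PER3 thus fell in the line where its control level was higher and rose in the line where it was lower, as did NPAS2. PER1 and PER2 instead rose in the line with the higher control mean, SUM149, though for PER2 that difference between controls did not pass. The MDA-MB-231 call was lost without any 1 of 5 arrays of that line, all but control replicate 1, with adjusted p-values of 0.0616 to 0.0988. The difference between the lines was 1.00 (95% interval 0.74 to 1.27, adjusted p = 0.000296).

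The cryptochromes CRY1 and CRY2, which hold the activator pair inactive together with PER, had no called change. CRY1 read 6.85, 6.82 and 6.80 in MDA-MB-231 AHR KO arrays, against 6.55, 6.47 and 6.64 in controls. The groups did not overlap, and the log2 fold change of 0.27 narrowly missed the threshold (SE 0.07, adjusted p = 0.0593 from limma). It passed under 3 other settings, with the dimmest 33.3% of rows removed (adjusted p = 0.0278), under robust moderation with a variance trend (0.0197) and after repeated quantile normalization (0.0443). These settings called 8.46%, 7.29% and 3.98% of all rows, against 3.92% in the design used. In SUM149 CRY1 read 5.99, 5.90 and 5.98 in AHR KO arrays and 5.91, 6.02 and 5.82 in controls, which overlap (95% interval of the log2 fold change -0.12 to 0.19). The CRY1 difference between the lines, -0.23, did not pass (adjusted p = 0.168).

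CRY2 passed no test. Its log2 level lay between 4.65 and 4.85 in SUM149 AHR KO arrays, between 4.73 and 4.93 in SUM149 controls, between 4.62 and 4.67 in MDA-MB-231 AHR KO arrays and between 4.64 and 4.73 in MDA-MB-231 controls. All neighbours in the order of the groups overlapped. SUM149 controls lay above all MDA-MB-231 AHR KO arrays and, by a margin lost in rounding, above all MDA-MB-231 controls. The 95% interval of the log2 fold change was -0.25 to 0.07 in SUM149 and -0.21 to 0.11 in MDA-MB-231.

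Of the REV-ERB receptors, which bind heme and repress ARNTL, NR1D2 rose and NR1D1 had no called change. NR1D2 read 6.48, 6.46 and 6.56 in SUM149 AHR KO arrays, against 6.03, 6.26 and 6.05 in controls, a rise of 1.31-fold (log2 fold change 0.39, SE 0.07, adjusted p = 0.00267 from limma). In MDA-MB-231 it read 8.32, 8.25 and 8.23 in AHR KO arrays, against 8.10, 8.12 and 8.16 in controls, again with no overlap and in the same direction, but the log2 fold change of 0.14 did not pass (adjusted p = 0.377). With 1 knockout effect for both lines, NR1D2 was the single gene of the 10 to pass, against 3.78% of all rows, or 1.66% for higher rows and 2.12% for lower (log2 fold change 0.26, SE 0.06, adjusted p = 0.0430). That call was lost in 10 of the 12 fits without 1 array, in which the adjusted p-values ran from 0.0531 to 0.104.

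NR1D1 read 5.62, 5.58 and 5.59 in SUM149 AHR KO arrays and 5.75, 5.5 and 5.47 in controls, and the groups overlapped (log2 fold change 0.02, 95% interval -0.17 to 0.21). In MDA-MB-231 it read 5.89, 6.08 and 6.02 in AHR KO arrays, all below the 6.31, 6.38 and 6.20 of the controls. That log2 fold change of -0.30 did not pass (SE 0.09, adjusted p = 0.0881 from limma), although it did with the dimmest 33.3% of rows removed (0.0490) and under robust moderation with a variance trend (0.0403). The 2 receptors had estimates of opposite sign in MDA-MB-231, and no test compared them.

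**Figure D2:**
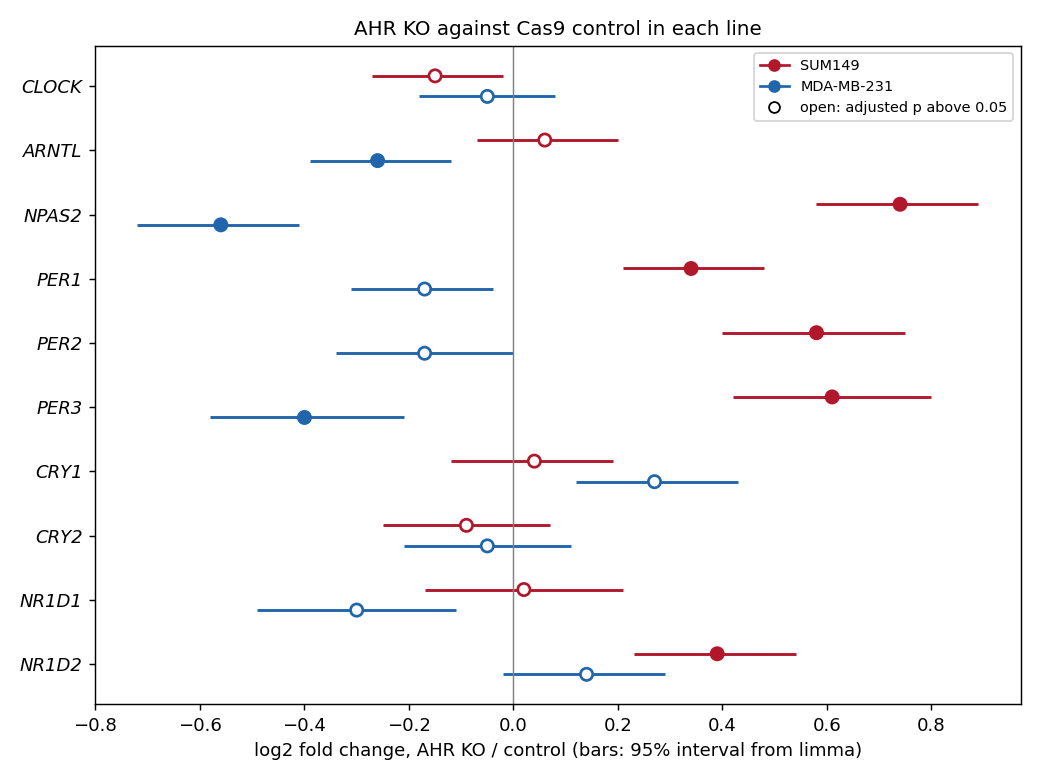
Log2 fold change of AHR KO over Cas9 control (x axis) for each of the 10 genes in SUM149 and in MDA-MB-231, with 95% intervals from limma and open points for adjusted p above 0.05. NPAS2 lies at 0.74 in SUM149 and at -0.56 in MDA-MB-231, and PER3 at 0.61 and -0.40, while the CRY2 intervals include 0 in both lines.

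Set side by side, the median of the 10 log2 fold changes was 0.20 in SUM149 and -0.17 in MDA-MB-231, against 0.01 and 0.00 over all rows. By the interaction contrast, 5 of the 10 (NPAS2, PER3, PER2, PER1 and ARNTL) responded to knockout differently in SUM149 and MDA-MB-231, against 13.2% of all rows. All 5 had the higher effect in SUM149, against 6.69%, and 0 the lower, against 6.47%. NR1D1 had the same estimate as ARNTL, 0.32, and did not pass (adjusted p = 0.121 from limma). Nor did NR1D2 at 0.25 (adjusted p = 0.147), CRY1 at -0.23, CLOCK at -0.1 or CRY2 at -0.04. In NPAS2, PER1, PER2 and PER3, every AHR KO array lay above every control array in SUM149 and below every control array in MDA-MB-231, which held for 2.69% of all rows. The fit with 1 effect for both lines averaged these opposite changes to 0.09 for NPAS2, 0.08 for PER1, 0.20 for PER2 and 0.11 for PER3, and none passed. By role, the genes that passed in SUM149, where 16.8% of all rows did, were 1 of 3 activators, 3 of 5 repressors and 1 of 2 nuclear receptors. Those that passed in MDA-MB-231, where 3.92% of all rows did, were 2 of 3 activators, 1 of 5 repressors and 0 of 2 nuclear receptors. The members of the loop act on each other, so the 10 are not independent.

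Most of the 10 genes also differed between the lines, with a median absolute log2 difference of 0.678 among controls, beside 0.243 for the knockout in SUM149 and 0.214 in MDA-MB-231. Over all rows the same quantities were 0.199, 0.133 and 0.104. Among control cells, PER1 and ARNTL were higher and NR1D2, PER3, NR1D1, CRY1, CLOCK and NPAS2 lower in SUM149 than in MDA-MB-231. Among AHR KO cells 9 of 10 genes passed, against 37.3% of all rows, with 4 higher in SUM149 (18.2%) and 5 lower (19.0%). Among control cells 8 of 10 passed, against 35.4%, with 2 higher in SUM149 (17.3%) and 6 lower (18.1%). These shares include dim rows. With the dimmest 33.3% of rows removed, 9 of 10 passed among AHR KO cells, against 54.4% of the rows kept. Among control cells 9 of 10 then passed, against 52.6%. PER1 was 5.33-fold higher in SUM149 controls (8.36 ± 0.06, SD, n = 3) than in MDA-MB-231 controls (5.95 ± 0.05), with an adjusted p of 8.58e-11 from limma. ARNTL was 4.26-fold higher in SUM149 controls (7.67 ± 0.04) than in MDA-MB-231 controls (5.58 ± 0.06), with an adjusted p of 3.28e-10. In the opposite direction, NR1D2 was 4.03-fold lower in SUM149 controls (6.12 ± 0.12) than in MDA-MB-231 controls (8.13 ± 0.03), with an adjusted p of 1.13e-09. PER3 was 3.79-fold lower in SUM149 controls (4.68 ± 0.16) than in MDA-MB-231 controls (6.61 ± 0.09), with an adjusted p of 8.21e-09. The 3 PER genes thus differed between the lines in their own ways, PER1 being higher in SUM149 and PER3 lower. PER2 was 0.20 higher on the log2 scale (adjusted p = 0.0640), which did not pass, although it did with median-centred arrays (0.0355), with the dimmest 33.3% of rows removed (0.0375) and without MDA-MB-231 AHR KO replicate 2 (0.0469). CLOCK, NPAS2, CRY1 and NR1D1 were 1.41-fold to 1.65-fold lower in SUM149 controls.

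NPAS2, lower in SUM149 among controls (log2 fold change -0.50, adjusted p = 0.000145 from limma), was higher in SUM149 among AHR KO cells (0.80, adjusted p = 2.72e-06). PER2, which lay near the threshold among controls, was 1.94-fold higher in SUM149 among AHR KO cells (log2 fold change 0.95, adjusted p = 1.38e-06). The gap in PER3 was smaller among AHR KO cells, 1.89-fold against 3.79-fold among controls, while that in PER1 was larger, 7.61-fold against 5.33-fold. These shifts are the interaction contrast given above, read from the other side, not a separate result. CRY2 was called in neither comparison of the lines (95% interval of the log2 fold change -0.06 to 0.25 among AHR KO cells and -0.02 to 0.29 among controls).

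**Figure D3:**
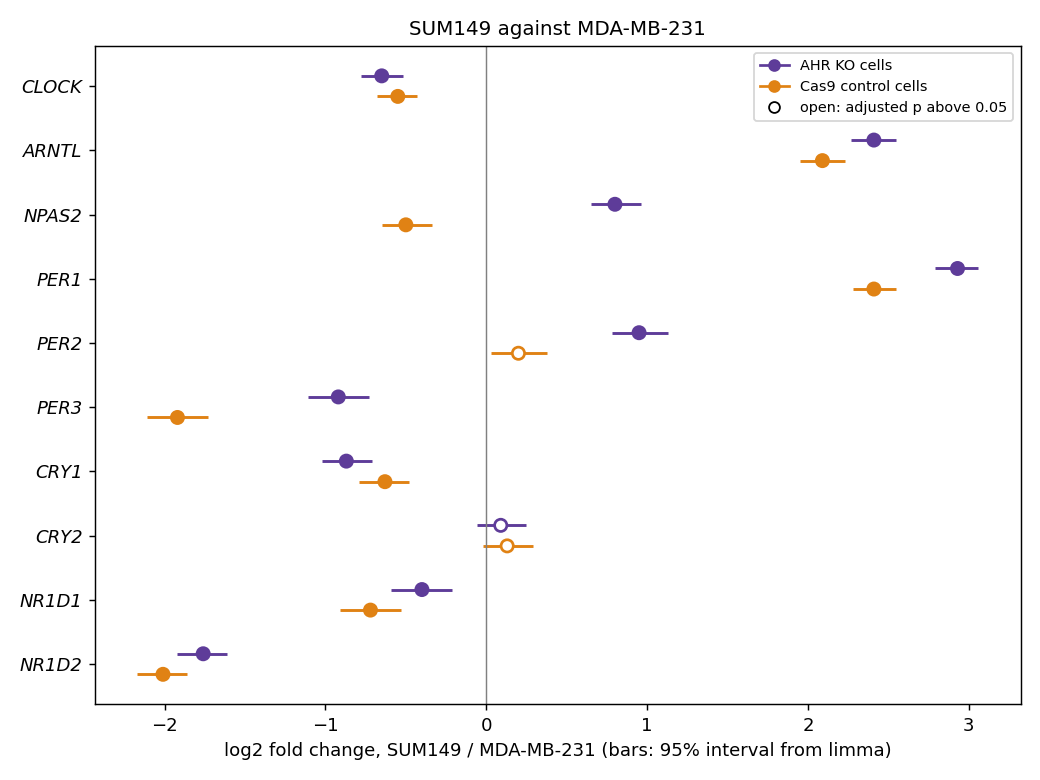
Log2 fold change of SUM149 over MDA-MB-231 (x axis) for each of the 10 genes, among AHR KO cells and among Cas9 control cells, with 95% intervals from limma and open points for adjusted p above 0.05. PER1 and ARNTL lie above 2 and NR1D2 below -1.7 in both, and NPAS2 changes sign, at 0.80 among AHR KO and -0.50 among control cells.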

How the data were processed

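RNA from 12 samples was hybridised to Affymetrix whole human genome arrays. The deposited table holds log2 values, and the submitters' processing notes name RMA, R 3.2.3 and affy 1.48.0. RMA corrects background, equalises the arrays' distributions by quantiles and summarises probes to 1 row per Ensembl gene ID, so a shift of most transcripts would not be seen. The probe set definition and its genome build are not named in the sources used here. Precision is set by the number of arrays.

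Tests were run on the unchanged table in limma 3.58.1 (R 4.3.3). The model had 4 group means (8 residual degrees of freedom), or cell line and 1 knockout effect (9) across the lines, with eBayes moderation, Benjamini-Hochberg adjustment over all 31720 rows and a threshold of 0.05. Exact permutation of 3 arrays against 3 cannot go below 0.1, so limma's model carries the p-values. Simulated data with known changes were used to check the scripts. Tables and plots were made with Python 3.11.15, pandas 2.3.3 and matplotlib 3.10.9. Alternatives were 19 settings, 12 of them leaving out 1 array. The symbols came from the list that defines the 10 genes, since the reference table named 0 of the IDs. Lists of other clock partners, PAS-domain genes and cell type markers, and the genes most like a member, were for that reason not analysed here. The genes, lists and motifs were chosen with earlier results of these data known. The rule was to name all 10 genes.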

Additional observations from a re-analysis of the deposited data

Results flagged for a closer look

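By limma's interaction contrast (SUM149 minus MDA-MB-231, log2 scale), 5 of 10 genes differed in knockout response between lines, against 13.2% of all rows. With the dimmest 33.3% of rows removed the same 5 passed, against 23.0% of the rows kept. NPAS2 differed by 1.30 and PER3 by 1.00, with called changes of opposite sign in the 2 lines. PER2 differed by 0.75 and PER1 by 0.51, with a called rise in SUM149 and lower values in MDA-MB-231 AHR KO cells that did not pass. ARNTL differed by 0.32, with a called fall in MDA-MB-231 alone, and lost both calls in most fits without 1 array. With 3 arrays a group, no group was large enough to be searched for an outlying array.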

How the results depend on the processing

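In SUM149 the same 5 genes (NPAS2, PER1, PER2, PER3 and NR1D2) passed in every setting run, where the design used called 16.8% of all rows. That share ran from 10.9% at an adjusted p of 0.01 to 28.1% with the dimmest 33.3% of rows removed. CLOCK passed in addition under a variance trend and robust moderation (19.7% of all rows). In MDA-MB-231, 3 genes passed in the design used (3.92% of all rows), 5 under robust moderation with a variance trend (7.29%) and 5 with the dimmest 33.3% of rows removed (8.46%). NPAS2 was the 1 gene left at an adjusted p of 0.01 (1.64% of all rows), with the 6 arrays of the line alone (1.7%) and with the replicate block (1.63%), and 1 to 2 genes passed without 1 array (2.3% to 3.49%). ARNTL and PER3 were the calls lost. Across the lines, 1 gene passed (NR1D2, 3.78% of all rows), 0 with median-centred arrays (3.6%), 0 at 0.01 (0.99%) and 0 with the replicate block (0.514%), and 0 to 1 without 1 array (1.85% to 3.69%), where only leaving out MDA-MB-231 control replicate 3 or AHR KO replicate 3 kept it. Between the lines the knockout effect differed in 4 to 6 genes without 1 array (10.6% to 11.6% of all rows), while 9 to 9 genes differed between AHR KO cells (33.7% to 37.2%) and 8 to 9 between control cells (32.2% to 35.3%). Calls over all rows thus rose and fell with the setting too. The causes were not tested, beyond a stricter threshold calling fewer. Arrays with the same number had deviations whose correlation over all rows ran from -0.0173 to 0.0348, with 0 of 6 above 0.1. No deviation shared over all rows was thus seen in arrays of the same number. Whether such arrays were prepared together cannot be told from these correlations.

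Of 1100 single values, 1034 kept both their sign and their side of the threshold, 49 lost a call, 11 gained one and 6 changed sign, none of the last called. In many of these the sign could not change. A variance trend, a stricter threshold, removal of dim rows and the replicate block leave the log2 fold change as it was. Leaving out an array outside the groups compared does the same. The 1100 also include values called in no setting. In SUM149 without 1 array, NR1D1 ranged over -0.03 to 0.11, turning to -0.01 without control replicate 2 and -0.03 without control replicate 3. CRY1 ranged over -0.01 to 0.09, with -0.01 without control replicate 3. Across the lines, NPAS2 ranged over -0.01 to 0.17, with -0.01 without SUM149 control replicate 2. The CRY2 difference between the lines ranged over -0.09 to 0.01, with 0.01 without SUM149 control replicate 3 and 0.00 without SUM149 AHR KO replicate 3. The number of arrays limits what can be called.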
